A study of Mus musculus with 39 samples.

Results

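The messenger RNAs (mRNAs) of 51 factors that shorten, decap and degrade mRNA were followed through sucrose gradients of mouse liver. The genes were taken by symbol: the numbered subunits of CCR4-NOT (Cnot), of the RNA exosome (Exosc), the Upf and Smg factors of nonsense-mediated decay, Argonautes Ago1 to Ago4, and 16 further symbols for decapping factors, exonucleases, other deadenylases and binders of AU-rich elements. All 51 are among the 13230 genes measured in both gradients, and all 51 passed the filter on low values, a mean of at least 1 TPM (a length-corrected share of the transcripts of a library), that left 11754 genes for testing. ATLAS-Seq sequences the RNA of fractions taken from a gradient of detergent-free tissue homogenate, so that RNAs in light and dense material are told apart. All 39 libraries came from liver of wild-type FVB female mice, 17 from gradient 1 (fractions 4 to 19 and 21) and 22 from gradient 2 (fractions 3 to 24), with nuclei removed and no treatment. The 2 gradients are biological replicates, and each fraction of a gradient has 1 library. The authors put an equal mass of RNA into each library, so the amount of RNA in a fraction is not kept. Every value below therefore gives a relative position of an mRNA within a gradient at steady state, not a rate of decay. The proteins were not analysed here.

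Most mRNAs lose their poly(A) tail before they are destroyed. The CCR4-NOT and Pan2-Pan3 complexes remove the tail, after which the Dcp2 enzyme cuts off the 5′ cap and the exonuclease Xrn1 degrades the body from the 5′ end, while the exosome degrades RNA from the 3′ end. Nonsense-mediated decay, led by the helicase Upf1, removes transcripts with premature stop codons, Argonaute proteins bring microRNAs to their targets, and the Zfp36 proteins bind AU-rich elements in 3′ untranslated regions (3′ UTRs) and recruit deadenylases. Several of these factors gather in P-bodies, cytoplasmic granules without a membrane, and the exosome works in the nucleus as well as in the cytoplasm.

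The mRNAs of the Zfp36 family carry the element that their own proteins bind, the nonamer TTATTTATT, written here as DNA. It was searched on the sense strand only, in the 3′ UTR of 1 GENCODE transcript a gene. The nonamer was present in 7 of the 50 members with an annotated 3′ UTR (14.0%), against 6.93% of 10787 tested genes, or 0.0817 against 0.0630 sites per kilobase of 3′ UTR, and all 3 Zfp36 family genes were among the 7. The windows below are 30 bases of the 3′ UTR on the transcribed strand of GRCm38, 5′ to 3′, with the nonamer in capitals. They show the 3 family members and, of the other carriers, Cnot6l and Edc3, whose changes across the gradient were the lowest and the highest.
Zfp36 (chr7:28376950-28376979, minus strand): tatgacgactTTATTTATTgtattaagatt
Zfp36l1 (chr12:80108166-80108195, minus strand): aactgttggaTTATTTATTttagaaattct
Zfp36l2 (chr17:84184913-84184942, minus strand): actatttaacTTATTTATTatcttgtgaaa
Cnot6l (chr5:96071160-96071189, minus strand): agggaagagaTTATTTATTtttgtttcctg
Edc3 (chr9:57750553-57750582, plus strand): agcttctagcTTATTTATTggcttgccttt
The remaining carriers were Ago2, with 2 sites, and Ago3. A match shows the letters in this window and not that a protein was bound. The median log2 difference from the light zone (fractions 4 to 7) to the dense zone (fractions 16 to 19) was -1.21 for the 7 carriers and 0.10 for the members without the nonamer, against -0.80 and -0.30 for all genes tested with and without it. Except for Zfp36 (774 nucleotides), the carriers have 3′ UTRs of 1822 to 12742 nucleotides, where the median member has 960. Among all genes the median was -0.78 at 1500 to 4000 nucleotides (50.8% lower) and -1.19 at 4000 or more (67.1% lower). The part of length in the difference between carriers and others was not tested. Of the carriers Cnot6l, Ago2, Ago3 and Zfp36l2 were lower at a limma adjusted p under 0.05, where 39.6% of all genes tested were lower. Edc3, Zfp36 and Zfp36l1 were not called, though Zfp36 was lower with gradient as a block (adjusted p = 0.000452).

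TPM is a share of the RNA of a library, corrected for transcript length, and keeps no record of reads. A higher value can mean more of that mRNA or less of the others in the fraction, and these cannot be told apart. The summed TPM of the 51 members lay between 1360 and 1908 across gradient 1, with a median of 1684, and between 958 and 1745 across gradient 2, with a median of 1395. The lowest sums were in the first library of each gradient, fraction 4 in gradient 1 and fraction 3 in gradient 2, where the 50 most abundant genes took 50.9% and 52.4% of the TPM, and the highest were in fraction 5 of both. Liver identity was checked with hepatocyte markers, and 7 of 7 were measured in both gradients, with a summed TPM of 25744 to 57398 in the light and 16582 to 34614 in the dense zone, ranges that overlap. Alb, Serpina1a, Hnf4a and Apoa1 had higher mean TPM in the light than in the dense zone, and Ass1, Cps1 and Ttr had lower. Sums of markers of other cells lay higher in the light than in the dense zone without overlap for Kupffer, sinusoidal endothelial, stellate and erythroid lists, whereas the ranges of the cholangiocyte and lymphocyte lists overlapped. The summed TPM ran from 63.6 to 83.5 in the light and 31.3 to 38.9 in the dense zone for 5 Kupffer cell markers, from 15.8 to 28.8 and 4.78 to 7.11 for 4 sinusoidal endothelial markers, and from 29.3 to 75.3 and 9.17 to 19.9 for 4 stellate cell markers. Of 4 cholangiocyte markers 3 were measured, with sums of 2.35 to 5.55 and 3.18 to 6.78, of 3 lymphocyte markers 2, with sums of 1.34 to 3.54 and 0.00 to 1.38, and of 4 erythroid markers 2, with sums of 253 to 494 and 57.7 to 99.5. The part of these cells in the results was not tested.

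Which decay factor mRNAs lie in light and which in dense material was asked with 3 zones of 4 fractions each, light (4 to 7), middle (10 to 13) and dense (16 to 19). Each zone has 8 libraries, but the fractions of a gradient are not replicates, so log2(TPM + 1) was averaged within a zone of a gradient and limma compared the 2 means of each zone, with p adjusted over the 11754 genes. From the light to the dense zone 18 members were higher and 15 lower at an adjusted p under 0.05, and 18 were not called. This is 33 of 51, where 61.9% of all genes tested were called, 22.3% higher and 39.6% lower. The median member differed by -0.00 on the log2 scale, against -0.43 for all genes, so members stood higher relative to the typical gene than their own values show. This gap was smaller among more abundant genes. At a mean TPM of at least 10 the medians were 0.00 for 42 members and -0.14 for 7233 genes. There 15 members were higher and 11 lower, where 30.8% and 35.5% of the genes were. Quantile normalization, which removes that shift (median of all genes -0.05), called 21 members higher and 13 lower, where 30.5% of all genes were called higher and 29.8% lower. With gradient as a block, which pairs the zones of a gradient, 20 were higher and 19 lower, where 80.6% of all genes were called, 30.5% higher and 50.0% lower. In 15 members all 8 dense libraries lay above all 8 light ones and in 12 all lay below, and the background was 16.9% and 28.9%. The sign was the same in both gradients for 45 of 51 members, and for 92.0% of all genes.

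**Figure D1:**
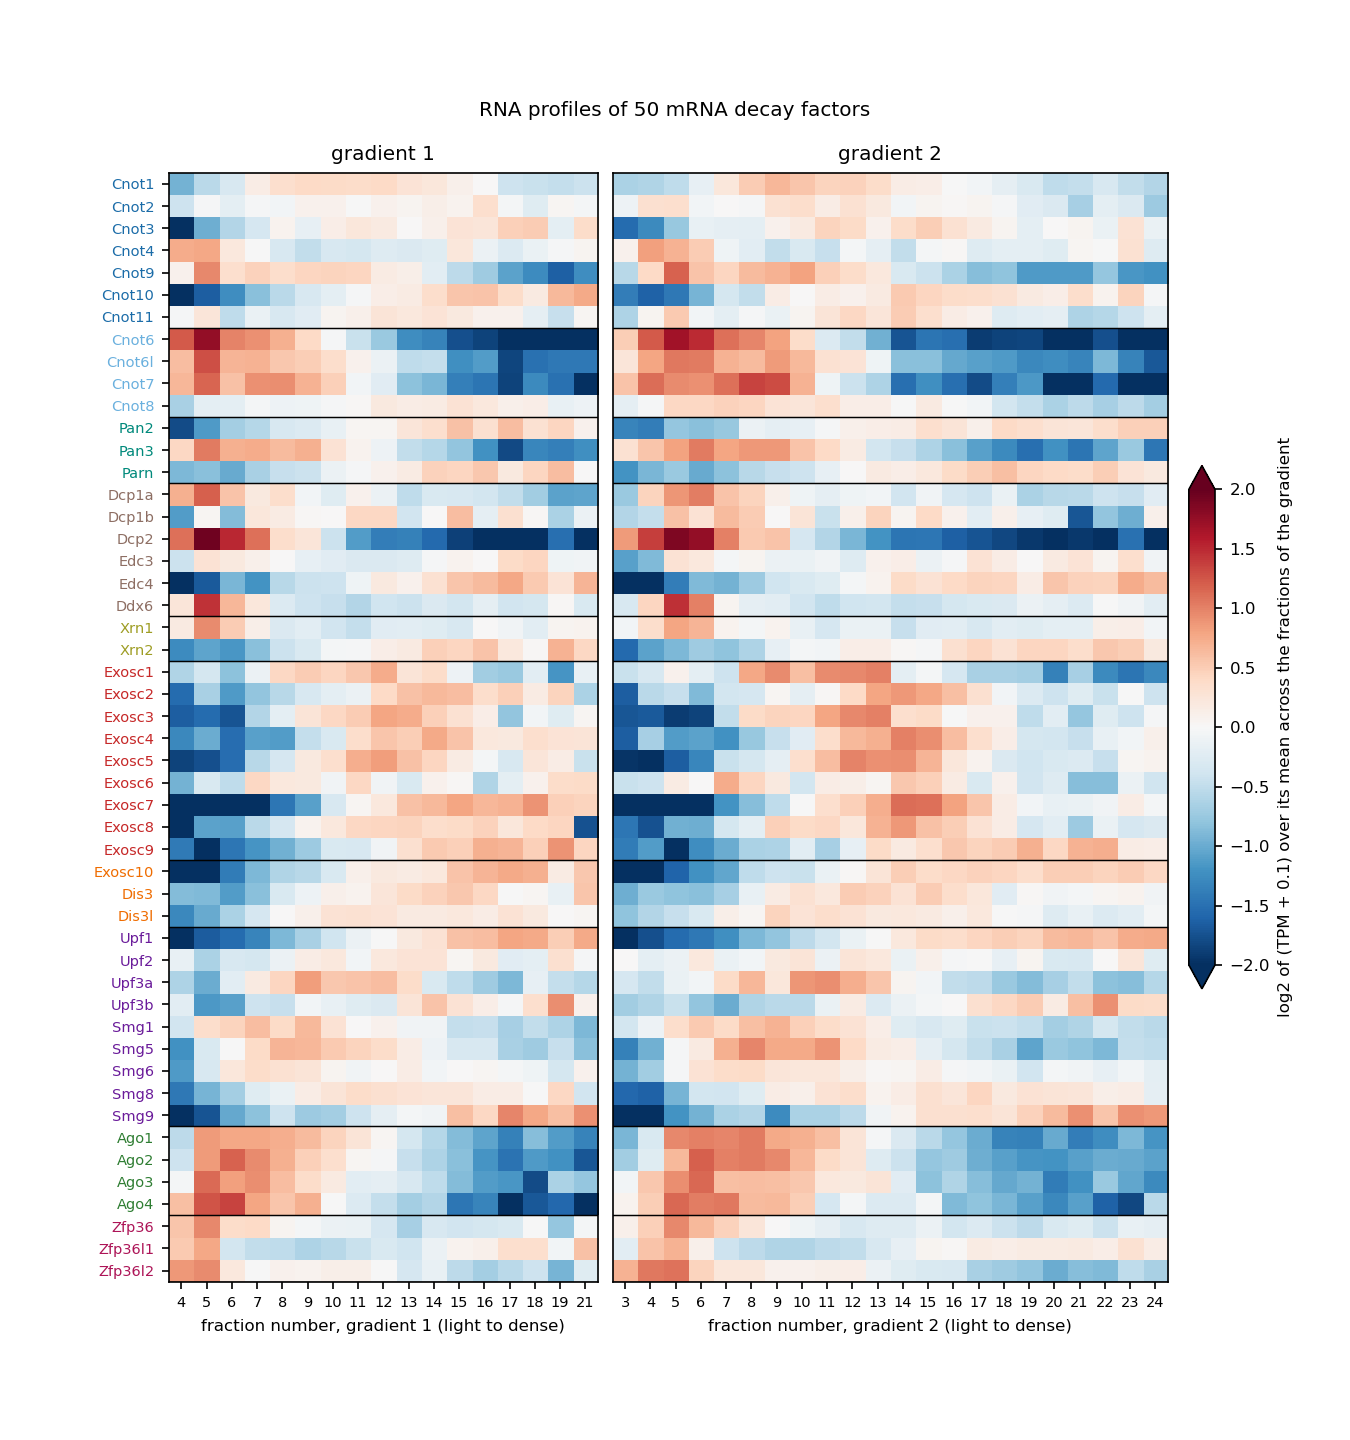
Heat map of 50 of the 51 members (rows, grouped by role and separated by black lines) over the fractions of gradient 1 (left, 17 libraries, no fraction 20) and gradient 2 (right, 22 libraries), light to dense; color is the log2 of TPM + 0.1 over its mean across the fractions of the gradient, limited to ±2. The CCR4-NOT deadenylases Cnot6, Cnot6l and Cnot7, Dcp2 and the Argonautes are red at the light end, and most exosome subunits and Upf1 are blue there.

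CCR4-NOT carries 2 kinds of deadenylase, Cnot6 or Cnot6l and Cnot7 or Cnot8, and 3 of these 4 mRNAs were lower in the dense zone, none higher, with a median difference of -2.14, where 39.6% of all genes were lower, 22.3% higher and the median was -0.43. Cnot6 (chr11:49671503-49712723, minus strand) had the largest fall of all members. Its TPM ran from 42.1 to 78.3 in the 8 light libraries (median 54.6), from 9.34 to 31.3 in the middle (median 16.8) and from 3.06 to 8.45 in the dense zone (median 6.24), with no overlap between any of the zones. The dense zone was lower by a log2 difference of -3.17 (SE 0.28, limma adjusted p = 0.000502), which is 9.02-fold on the scale of TPM + 1. Its paralog Cnot6l went from a median of 38.1 (31.8 to 58.2) to 8.80 (6.55 to 10.9), again without overlap (log2 difference -2.05, SE 0.17, limma adjusted p = 0.000457). The profiles of this pair correlated across fractions with R = 0.965 in gradient 1 and 0.947 in gradient 2.

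Cnot7 and Cnot8, the other interchangeable pair, were not alike in both gradients. Cnot7 went from a median of 29.0 TPM in light fractions (21.7 to 33.1) to 5.22 in dense ones (3.92 to 6.79), and these did not overlap (log2 difference -2.23, SE 0.19, limma adjusted p = 0.000484). Cnot8 was the more abundant of the pair and nearly level, with 46.8 to 85.6 TPM in the light zone (median 67.9), 67.7 to 83.9 in the middle (median 73.7) and 44.6 to 84.8 in the dense zone (median 63.9). Its difference was -0.10 (SE 0.24, limma adjusted p = 0.728), from 0.34 in gradient 1 and -0.54 in gradient 2. In gradient 1 it was highest in fraction 15 and in gradient 2 in fraction 7, and its profiles in the 2 gradients correlated with R = -0.10, the lowest of all members. Against Cnot7 its R was -0.58 in gradient 1 and 0.74 in gradient 2. Reads of Cnot7 may include those of Zdhhc2, whose exons overlap it on the other strand, since the strand setting of the quantification is not given in the sources used here.

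The 7 scaffold and regulatory subunits of CCR4-NOT split into 1 higher, 2 lower and 4 not called, with a median of -0.00, against the same shares of all genes. Cnot10, a subunit that binds the amino-terminal part of the scaffold, rose from a median of 6.69 TPM (4.24 to 11.2) to 19.9 (16.3 to 29.4) with no overlap, a log2 difference of 1.52 (limma adjusted p = 0.00301). Cnot9, which links the complex to Argonaute partner proteins, went the other way, from 28.3 (23.9 to 44.3) to 10.5 (7.22 to 13.8), again without overlap (-1.48, limma adjusted p = 0.000942). Cnot4, an E3 ubiquitin ligase, was lower by a small margin (-0.56, limma adjusted p = 0.0422), and the call was lost whichever zone mean was left out (adjusted p 0.0663 to 0.184) and under quantile normalization (adjusted p = 0.309). Cnot1, the scaffold itself, stood at medians of 54.0 and 57.7 TPM in the light and dense zones and differed by 0.10 (limma adjusted p = 0.632). Cnot2, Cnot3 and Cnot11 were not called either, at -0.00, 0.90 and -0.08, and Cnot3 was called higher when gradient was a block (adjusted p 0.0666 without and 0.00345 with it). Exons of Cnot1 and Cnot3 overlap those of 4930513N10Rik and Leng1 on the other strand.

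Pan2 and Pan3, which act as one deadenylase complex, moved in opposite directions. Pan2, the nuclease, had 3.84 to 9.05 TPM in the light zone (median 7.20) and 13.6 to 20.8 in the dense zone (median 16.7), a log2 difference of 1.22 (limma adjusted p = 0.00288). Pan3, its adaptor, had 16.4 to 32.5 TPM in light fractions (median 21.8) and 3.83 to 6.75 in dense ones (median 5.58), a difference of -1.89 (limma adjusted p = 0.00123). For neither gene did the light and dense ranges overlap. Parn, a deadenylase that also trims small noncoding RNAs, was higher in the dense zone, with 24.8 to 37.9 TPM against 10.7 to 14.9 (1.26, limma adjusted p = 0.00217).

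Of the 6 decapping factors 1 was higher, 3 were lower and 2 not called, near the shares of all genes (22.3% higher and 39.6% lower). Dcp2, the catalytic subunit, had 11.7 to 25.7 TPM in light fractions (median 17.0), 2.46 to 4.88 in the middle (median 3.00) and 0.586 to 2.27 in dense ones (median 1.56). No zone overlapped another, and the dense zone was lower by a log2 difference of -2.91 (SE 0.20, limma adjusted p = 0.000322), 7.49-fold on the scale of TPM + 1. Dcp2 had the highest peak over its mean of all members, 3.89 in gradient 1 and 3.68 in gradient 2, both in fraction 5. Its activator Dcp1a fell from a median of 7.11 TPM (5.02 to 11.3) to 2.93 (2.28 to 3.78) without overlap (-1.02, limma adjusted p = 0.00939), a call lost under quantile normalization (adjusted p = 0.0578) and when the light zone of gradient 1 was left out (adjusted p = 0.0604). Dcp1b, the other Dcp1 gene, was scarce, at 1.08 to 3.12 and 1.32 to 3.33 TPM in the same zones, and differed by -0.00 (limma adjusted p = 0.991).

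Ddx6, an RNA helicase that represses translation and promotes decapping, peaked sharply. In gradient 1 it stood at 104 TPM in fraction 4, 237 in fraction 5, 139 in fraction 6 and 102 in fraction 7. In gradient 2 the same fractions held 111, 229, 167 and 85.8 TPM. From fraction 8 onward it stayed between 57.9 and 89.1 TPM in both gradients, so that the dense zone was lower by a log2 difference of -0.93 (limma adjusted p = 0.00281), although the lowest light library, at 85.8, lay below the highest dense one, at 89.1. Edc4, a scaffold that binds Dcp1 and Dcp2, rose instead, from 2.13 to 9.58 TPM in the light zone (median 5.59) to 12.0 to 31.1 in the dense zone (median 18.4), with no overlap. The difference was 1.73 (SE 0.41, limma adjusted p = 0.0132) and was lost when either light-zone mean was left out (adjusted p up to 0.0945). Edc3, another enhancer of decapping, differed by 0.16 (limma adjusted p = 0.482), and its exons overlap those of Clk3 on the other strand.

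Of the 5′-to-3′ exonucleases 1 was called. Xrn2, which acts mainly in the nucleus, rose from 18.3 to 24.8 TPM in the light zone (median 21.0) to 44.9 to 71.5 in the dense zone (median 51.7), without overlap (1.31, limma adjusted p = 0.00152). Xrn1, the cytoplasmic enzyme, had medians of 11.8 and 7.57 TPM with ranges that overlapped. Its difference of -0.55 was not called (limma adjusted p = 0.0865) and was called lower with gradient as a block (adjusted p = 0.00913). The profiles of this pair correlated negatively, with R = -0.50 in gradient 1 and -0.52 in gradient 2.

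**Figure D2:**
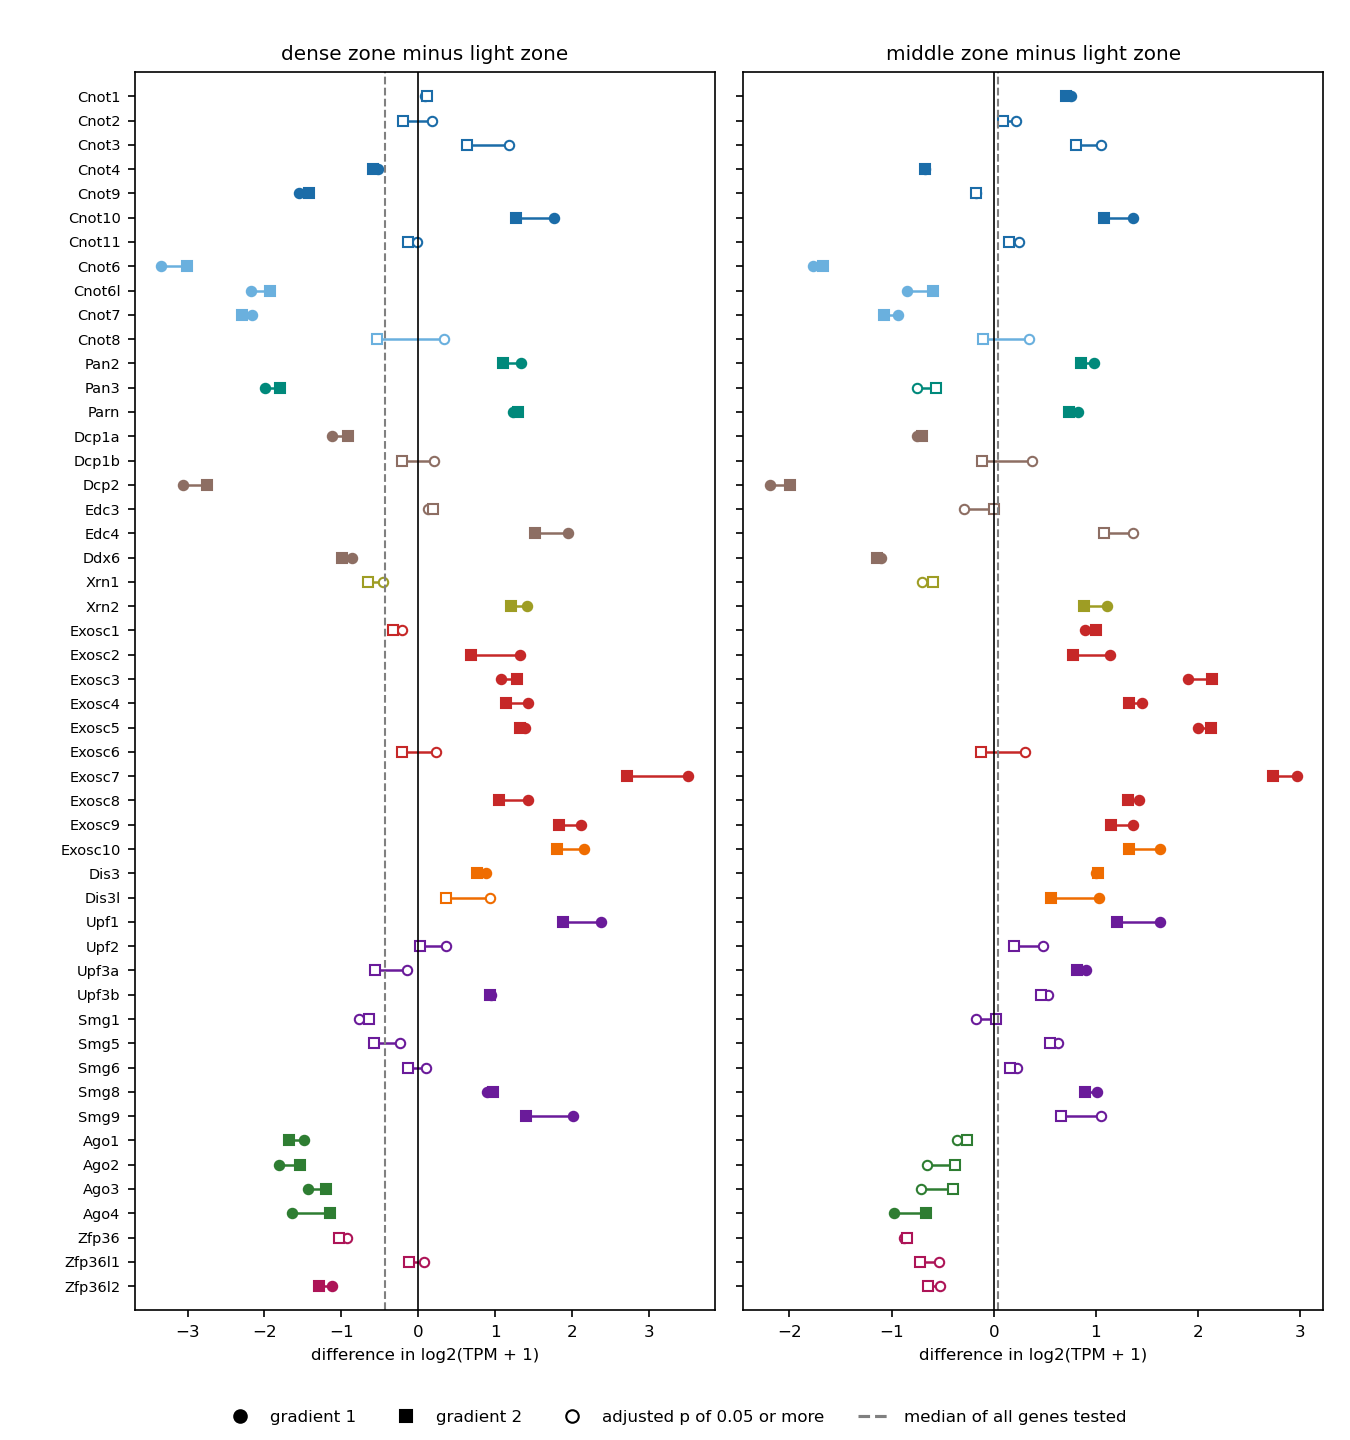
Difference in log2(TPM + 1) of 50 members between the dense and the light zone (left) and the middle and the light zone (right), each the mean of 4 fractions in gradient 1 (circle) and gradient 2 (square); filled symbols have a limma adjusted p under 0.05, colors mark roles, and the dashed line is the median of all genes tested (-0.43 left, 0.05 right). Exosc7 is farthest to the right in both panels, Cnot6 farthest to the left in the left panel and Dcp2 in the right one.

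Most exosome mRNAs were higher in the dense than in the light zone. Of the 9 core subunits, which form a ring and cap around the RNA, 7 were higher in the dense zone and none was lower, with a median difference of 1.24, where 22.3% of all genes were higher and the median was -0.43. Most of the 9 have 3′ UTRs under 500 nucleotides, and of all genes of that length 38.4% were higher, with a median of 0.31. From middle to dense the core had a median of -0.10, with 1 higher and 2 lower, where 4.79% and 22.5% of all genes were. Exosc7 (chr9:123113215-123136129, plus strand) had the largest rise of all members, from 4.71 to 27.1 TPM in light fractions (median 9.66) to 60.6 to 114 in the middle (median 82.5) and 59.9 to 141 in dense ones (median 107). Its light libraries were all below its middle and dense ones, by a log2 difference of 3.11 from light to dense (SE 0.24, limma adjusted p = 0.000361), 8.66-fold on the scale of TPM + 1. Exosc9 (chr3:36552606-36565727, plus strand) rose at each step, with medians of 7.86, 16.9 and 29.9 TPM and ranges of 3.77 to 9.62, 12.1 to 25.4 and 26.4 to 38.0 that did not overlap (1.98 from light to dense, SE 0.18, limma adjusted p = 0.00058).

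The other core subunits rose by less or not at all. Exosc2, Exosc3, Exosc4, Exosc5 and Exosc8 were higher in the dense zone by 1.00 to 1.36, and Exosc2 and Exosc8 had no overlap between light and dense libraries. The call of Exosc2 was lost without the light zone of gradient 1 (adjusted p = 0.073) and that of Exosc4 in 3 of the 6 fits that left out a zone mean (adjusted p up to 0.149). Exosc1 and Exosc6 were not called, at -0.27 (limma adjusted p = 0.309) and 0.01 (limma adjusted p = 0.985). Exons of Exosc6 overlap those of Aars on the same strand, and its values, 6.23 to 19.8 TPM in light and 6.41 to 19.2 in dense fractions, may hold reads of both. Exosc5 and Exosc8 overlap Tmem91 and Supt20 on the other strand.

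Of the 3 ribonucleases that work with the core, Exosc10 and Dis3 were higher. Exosc10 (chr4:148558429-148582401, plus strand), the nuclear enzyme, had 5.77 to 16.2 TPM in the light zone (median 9.70) and 32.8 to 51.8 in the dense zone (median 35.0), without overlap (1.98, SE 0.22, limma adjusted p = 0.000964). Dis3 rose from a median of 5.27 to 9.66 TPM, also without overlap (0.83, limma adjusted p = 0.0138), a call lost when either light-zone mean was left out (adjusted p up to 0.0956). Dis3l, the cytoplasmic paralog of Dis3, went from a median of 13.4 to 21.6 TPM with overlap and was not called (0.64, limma adjusted p = 0.0589), and was called higher with gradient as a block (adjusted p = 0.0157). Dis3 and Dis3l correlated across fractions with R = 0.769 in gradient 1 and 0.763 in gradient 2.

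Of the 10 factors of nonsense-mediated decay 4 were higher, where 22.3% of all genes were. Upf1 (chr8:70331525-70353278, minus strand), the helicase, rose almost steadily to the dense end. In gradient 1 it stood at 18.9 TPM in fraction 4, 78.8 in fraction 10 and 180 in fraction 17, and in gradient 2 at 24.4 TPM in fraction 4, 57.4 in fraction 10, 111 in fraction 17 and 140 in fraction 24. The light libraries ran from 18.9 to 41.4 TPM (median 31.6) and the dense ones from 105 to 180 (median 131), a log2 difference of 2.13 (SE 0.26, limma adjusted p = 0.00127) or 4.37-fold. Smg8 and Smg9, which bind and restrain the kinase Smg1, were both higher, Smg9 by 1.71 (limma adjusted p = 0.00349) and Smg8 by 0.93 (limma adjusted p = 0.0152), the latter lost in 3 of the 6 fits without a zone mean (adjusted p up to 0.103). Smg1 itself was not called (-0.70, limma adjusted p = 0.0599) and was lower with gradient as a block (adjusted p = 0.00235). Upf2, which bridges Upf1 and Upf3, differed by 0.19 (limma adjusted p = 0.41).

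Of the Upf3 paralogs 1 was called between the ends. Upf3b, on the X chromosome, rose from a median of 6.79 TPM (4.09 to 8.64) to 13.2 (8.98 to 17.6) without overlap (0.94, limma adjusted p = 0.0151, lost in 2 of the 6 fits without a zone mean with an adjusted p up to 0.105). Upf3a had medians of 20.9, 40.6 and 15.6 TPM from light to dense, with its highest library in fraction 9 of gradient 1 and fraction 11 of gradient 2, and did not differ detectably between the ends (-0.35, limma adjusted p = 0.164). The pair correlated with R = -0.18 in gradient 1 and -0.53 in gradient 2. Smg5, which helps recruit decay enzymes, differed by -0.41 (limma adjusted p = 0.239, 0.0267 with gradient as a block), and Smg6, the endonuclease, by -0.02 (limma adjusted p = 0.943), with exons that overlap Srr on the other strand.

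All 4 Argonautes were lower in the dense zone, with no overlap between 8 light and 8 dense libraries in any of them and a median difference of -1.49. Among all genes 39.6% were lower and 28.9% had dense libraries entirely below the light ones, and of genes with a 3′ UTR of at least 4000 nucleotides 67.1% were lower. Ago4, with 3682 nucleotides, falls in the class of 1500 to 4000, where 50.8% were lower. Ago1 fell from a median of 39.9 TPM (16.2 to 44.8) to 10.7 (7.79 to 13.8), a log2 difference of -1.59 (limma adjusted p = 0.00111). Ago2, the Argonaute that cleaves targets, fell from 31.3 (12.2 to 56.8) to 8.85 (6.31 to 11.4), by -1.67 (limma adjusted p = 0.00733). The call of Ago2 was lost without the light zone of gradient 1 (adjusted p = 0.0536), and its exons overlap Chrac1 on the other strand. Ago3 and Ago4 were scarcer, with medians of 4.99 and 3.07 TPM in the light and 1.38 and 0.632 in the dense zone, and differed by -1.32 and -1.40 (limma adjusted p = 0.00347 and 0.00218). Each pair of Argonautes correlated across fractions with R between 0.877 and 0.967 in gradient 1 and between 0.871 and 0.975 in gradient 2. Ago1, Ago3 and Ago4 lie next to each other on chromosome 4, between positions 126331704 and 126533472, and Ago2 lies on chromosome 15.

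The Zfp36 genes encode the binders of AU-rich elements and include the most abundant member, Zfp36l1, which had the highest median TPM of the 51 in both gradients. It had 123 to 418 TPM in the light zone (median 217), 109 to 199 in the middle (median 149) and 167 to 309 in the dense zone (median 209), ranges that overlap. Its profile was high at both ends: in gradient 1 it stood at 418 TPM in fraction 5, 159 in fraction 9 and 309 in fraction 17, and in gradient 2 at 267, 108 and 183 TPM. The dense and light zones differed by -0.02 (limma adjusted p = 0.954). Zfp36l2 fell from a median of 83.6 TPM (50.6 to 130) to 34.9 (24.98 to 50.6), by -1.21 (limma adjusted p = 0.0162, lost in 2 of the 6 fits without a zone mean with an adjusted p up to 0.106). Zfp36 itself went from a median of 167 to 84.7 TPM and differed by -0.97, with an adjusted p of 0.163 in limma that became 0.000452 with gradient as a block. Its level was higher in gradient 2 (median 125 TPM) than in gradient 1 (median 65.8) at every shared fraction. Zfp36 correlated with Zfp36l2 at R = 0.884 and 0.841 in gradients 1 and 2, and with Zfp36l1 at 0.470 and 0.371.

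**Figure D3:**
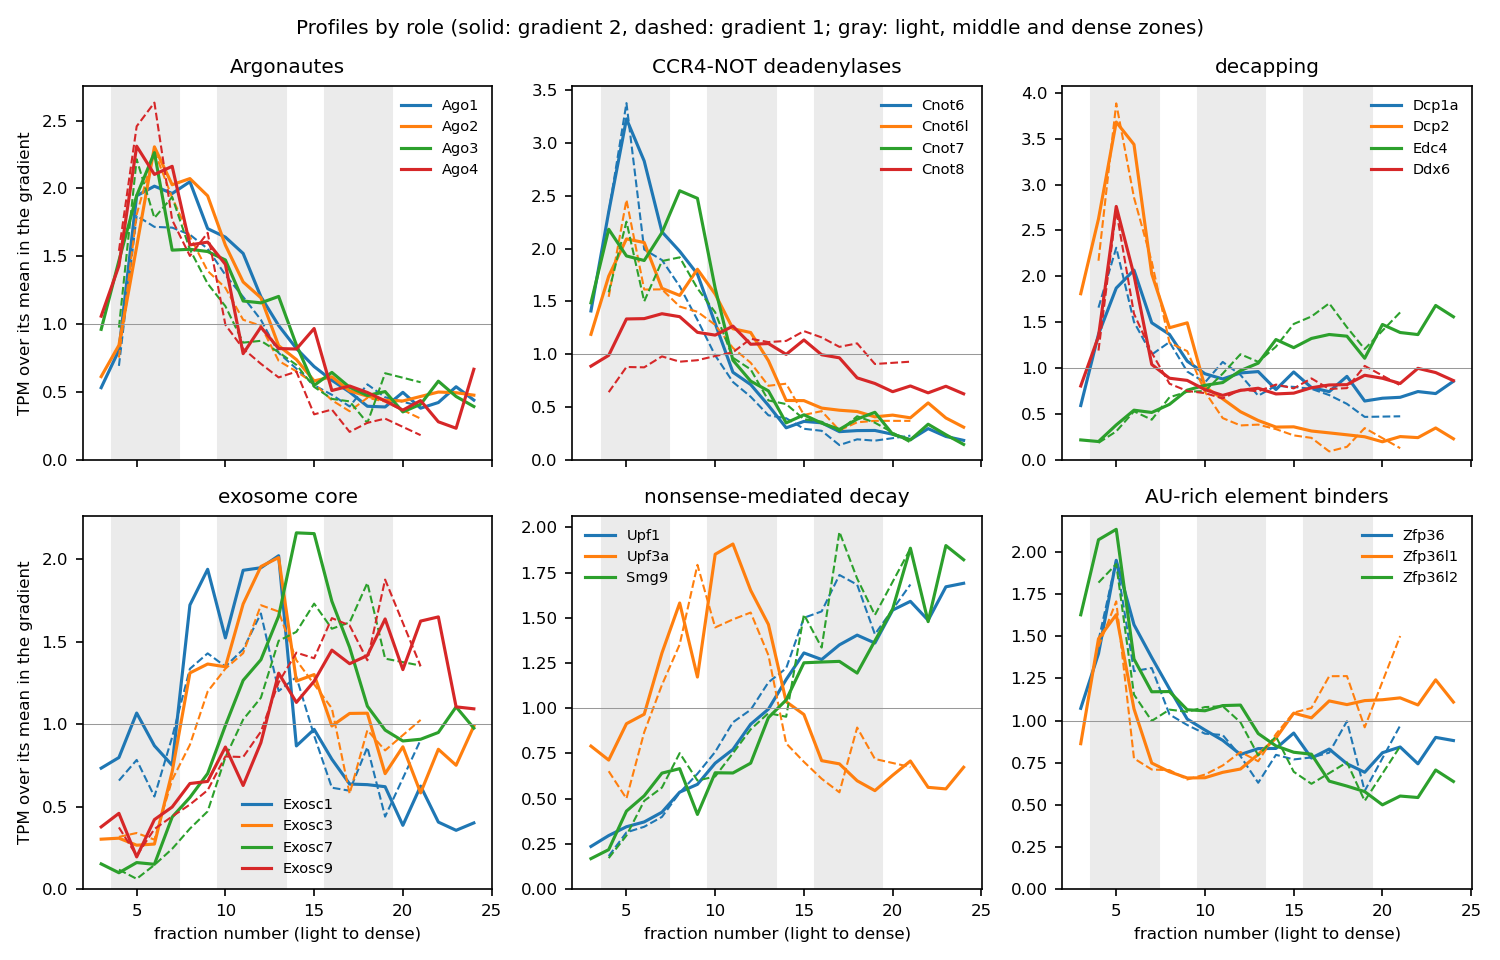
Profiles of 22 members by role, as TPM over its mean in the gradient (vertical axis, 1 is the mean) against fraction number, with gradient 2 as solid and gradient 1 as dashed lines and the 3 zones shaded. The 4 Argonautes share a light peak, Cnot8 stays near its mean while Cnot6, Cnot6l and Cnot7 fall, Edc4 rises where Dcp2 falls, Exosc1 and Exosc3 peak between light and dense fractions, and Zfp36l1 is high at both ends.

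The middle zone set part of the exosome apart. From light to middle 19 members were higher, 8 lower and 24 not called, against 47.5% of all genes called (23.5% higher and 24.1% lower), and the median was 0.20 for members and 0.05 for all genes. Of the 9 core subunits 8 were higher, and all 8 had middle libraries entirely above the light ones (17.6% of all genes), with the 3 ribonucleases doing the same. The 4 largest rises were Exosc7 (2.85, SE 0.24, limma adjusted p = 0.0012), Exosc5 (2.06, SE 0.27, adjusted p = 0.00276), Exosc3 (2.02, SE 0.24, adjusted p = 0.00209) and Exosc10 (1.48, SE 0.22, adjusted p = 0.0042). Exosc5 went from a median of 18.8 TPM (8.11 to 42.9) in the light to 90.6 (59.3 to 113) in the middle zone, and Exosc3 from 8.42 (5.44 to 18.1) to 39.5 (27.6 to 47.0). Their medians in the dense zone were 52.7 and 21.8 TPM.

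The 4 largest falls from light to middle were Dcp2 (-2.09, SE 0.20, limma adjusted p = 0.00138), Cnot6 (-1.72, SE 0.28, adjusted p = 0.0052), Ddx6 (-1.12, SE 0.14, adjusted p = 0.00267) and Cnot7 (-1.005, SE 0.19, adjusted p = 0.00902). Of the Argonautes 1 of 4 was called (Ago4, -0.82, limma adjusted p = 0.0204), and the differences of Ago1, Ago2 and Ago3 were -0.31, -0.51 and -0.56. With gradient as a block 3 of the 4 were lower. With gradient as a block the members lower rose from 8 to 16 and those higher from 19 to 24, where 72.1% of all genes were called, 37.2% higher and 35.0% lower. The 8 added as lower included Pan3, Xrn1, Ago2, Ago3, Zfp36, Zfp36l1 and Zfp36l2 (blocked adjusted p 0.00108 to 0.0173), and the 5 added as higher were Cnot3, Edc4, Upf3b, Smg5 and Smg9 (0.00115 to 0.00906). These counts rest on few values: without a zone mean of the light or the middle zone, between 7 and 12 members were higher and 3 or 4 lower, where 12.6% to 17.4% of all genes were higher and 12.0% to 16.1% lower. Exosc7, Exosc5, Exosc3, Exosc8, Exosc9, Exosc10, Dcp2 and Ddx6 were called in all 6 such fits.

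From middle to dense 14 members were lower and 1 higher, with 36 not called, against 27.3% of all genes called (22.5% lower and 4.79% higher). The largest falls were Cnot6 (-1.45, SE 0.28, limma adjusted p = 0.0156) and Cnot6l (-1.33, SE 0.17, adjusted p = 0.00722), and the rise was Exosc9 (0.72, SE 0.18, adjusted p = 0.0368). In 1 member, Exosc9, all dense libraries lay above all middle ones (5.45% of all genes) and in 15 all lay below (19.3%), among them Cnot6, Cnot6l and Cnot7 and the 4 Argonautes. The direction depends on the scaling here: quantile normalization called 8 members higher and 8 lower, where 10.4% of all genes were higher and 13.7% lower, and turned the median from -0.15 to 0.18, and that of all genes from -0.28 to 0.05. With gradient as a block 8 members were higher and 19 lower, where 53.4% of all genes were called, 14.1% higher and 39.3% lower. The 7 added as higher were Parn, Edc4, Exosc10, Upf1, Upf3b, Smg9 and Zfp36l1 (blocked adjusted p 0.00644 to 0.0285) and the 5 added as lower were Exosc5, Smg1, Ago2, Ago4 and Zfp36l2 (0.00135 to 0.0409). By limma no member and none of the 11754 genes was called when the middle zone of either gradient was left out, where 4 members higher and 10 lower (gradient 1 left out) or 0 higher and 14 lower (gradient 2 left out) had an unadjusted p under 0.05. The call of Exosc9 was lost in all 6 fits without a zone mean (adjusted p 0.0627 to 0.208).

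Taking the steps in turn, 4 members were higher in the middle than in both the light and the dense zone, Cnot1, Exosc1, Exosc3 and Upf3a, which is 4 of 51 where 6.36% of all genes did so. Cnot1 had medians of 54.0, 91.4 and 57.7 TPM and Exosc1 of 7.98, 17.3 and 6.35 TPM. Cnot6, Cnot6l, Cnot7 and Dcp2 were lower at both steps (5.9% of all genes) and Exosc9 alone was higher at both (3.54%). The calls from middle to dense of Cnot1, Exosc3 and Dcp2 were lost in all 6 fits without a zone mean (adjusted p 0.0746 to 0.254, 0.0687 to 0.226 and 0.0599 to 0.179), and that of Cnot6 in 4 of them (up to 0.0895). Quantile normalization also ended these 4 calls (adjusted p 0.142 for Cnot1, 0.108 for Exosc3, 0.131 for Dcp2 and 0.0637 for Cnot6). Since no gene was called from middle to dense without either middle-zone mean, none of the 9 patterns was called in all 6 fits. A difference among the 3 zones by limma's F test was called for 36 of 51 members, where 64.4% of all genes were called.

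Over the 17 fractions that both gradients share, the center of sedimentation, the mean fraction number weighted by TPM, was at a median of 12.2 for members in gradient 1 and 11.8 in gradient 2, against 11.3 in both for all genes tested. Dcp2 had the lightest center (7.56 and 7.86 in gradients 1 and 2), followed by Cnot6 (7.95 and 8.16), while the densest were those of Exosc7 in gradient 1 (14.8) and Upf1 in gradient 2 (14.4). By role the medians in gradients 1 and 2 were 9.13 and 9.16 for CCR4-NOT deadenylases, 9.69 and 9.84 for Argonautes, 10.9 and 10.7 for binders of AU-rich elements, 11.5 and 10.9 for decapping factors, 12.1 and 11.8 for the CCR4-NOT scaffold group, 12.3 and 11.9 for nonsense-mediated decay, 12.6 and 12.3 for the 5′-to-3′ exonucleases, 13.1 and 12.8 for the exosome core, 13.3 and 12.8 for its ribonucleases and 13.5 and 13.4 for the other deadenylases. The scaffold group and nonsense-mediated decay, and the exosome core and its ribonucleases, did not differ beyond the spread between the gradients. In gradient 2 the highest library lay in fractions up to 7 for 19 members, in 8 to 15 for 21 and from 16 on for 11, and in gradient 1 the numbers were 19, 14 and 18.

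The profile of a member in gradient 1 correlated with its profile in gradient 2 at a median R of 0.904 over 17 fractions, against 0.899 for all genes, and R was above 0.9 for 26 of 51 members. Only Cnot2 and Cnot8 had R below 0 (-0.00 and -0.10), and both had peaks of at most 1.38 times their mean. Members did not share a profile with each other: the median R over 1275 pairs was 0.192 in gradient 2 and 0.070 in gradient 1, against 0.117 and 0.067 over all pairs of genes tested. Within roles, the median R in gradients 2 and 1 was 0.907 and 0.930 for the Argonautes, 0.857 and 0.170 for the CCR4-NOT deadenylases, and 0.476 and 0.633 for the exosome core. These correlations describe neighboring fractions of the same homogenates, which are not independent, and so carry no p.

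The members' position went with the length of their 3′ UTR. Lengths were taken from 1 GENCODE M21 transcript a gene with a RefSeq match, for 50 of 51 members (Cnot8 has no complete transcript there) and for 10787 of the genes tested (91.8%). Spearman's rho between 3′ UTR length and the dense-minus-light difference was -0.699 over 50 members (Pearson's r with log10 length -0.686) and -0.335 over 10787 genes (r = -0.284). For members and all genes the rho was -0.504 and -0.186 with transcript length, which includes the 3′ UTR, -0.294 and -0.125 with 5′ UTR length and -0.015 and 0.096 with coding length. Without the exosome genes and the Argonautes, 34 members remained and rho was -0.591. The points share the same libraries, and members of a role such as the Argonautes have alike profiles, so the points are not independent. Which isoform lies in which fraction was not analysed here.

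In the shortest class, under 500 nucleotides (nt), 11 of 17 members were higher in the dense zone and 1 was lower, with a median difference of 1.24, where 38.4% of the 3339 genes of that length were higher and 23.7% lower, with a median of 0.31. The exception was Cnot6, with 480 nt in this annotation. The class of 500 to 1500 nt had 6 of 15 higher and 2 lower (median 0.10), where 23.5% of all genes of that length were higher and 34.1% lower (median -0.21). From 1500 to 4000 nt 1 of 10 was higher, Dis3 (2176 nt), and 6 were lower (median -1.11), where 11.1% of all genes of that length were higher and 50.8% lower (median -0.78). Of the 8 members with at least 4000 nt none was higher and 6 were lower (median -1.45), where 6.12% of all genes of that length were higher and 67.1% lower (median -1.19). The shares of members lower in these 2 longest classes were near those of all genes of the same length. The 4 largest rises were those of Exosc7 (126 nt), Upf1 (958 nt), Exosc10 (87 nt) and Exosc9 (220 nt). The 4 largest falls were those of Cnot6 (480 nt), Dcp2 (7240 nt), Cnot7 (1447 nt) and Cnot6l (6847 nt). Ago3 (12742 nt) and Ago2 (11064 nt) had the longest 3′ UTRs and differed by -1.32 and -1.67. Pairs of paralogs and partners did not all follow length. Pan2 (588 nt) and Pan3 (2115 nt) parted, as did Edc4 (346 nt) and Dcp2. Cnot6 (480 nt) and Cnot6l both fell, Dis3 (2176 nt) and Dis3l (287 nt) had differences of 0.83 and 0.64, and of Xrn1 (218 nt) and Xrn2 (452 nt), both with short 3′ UTRs, Xrn2 was higher and Xrn1 was not called.

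**Figure D4:**
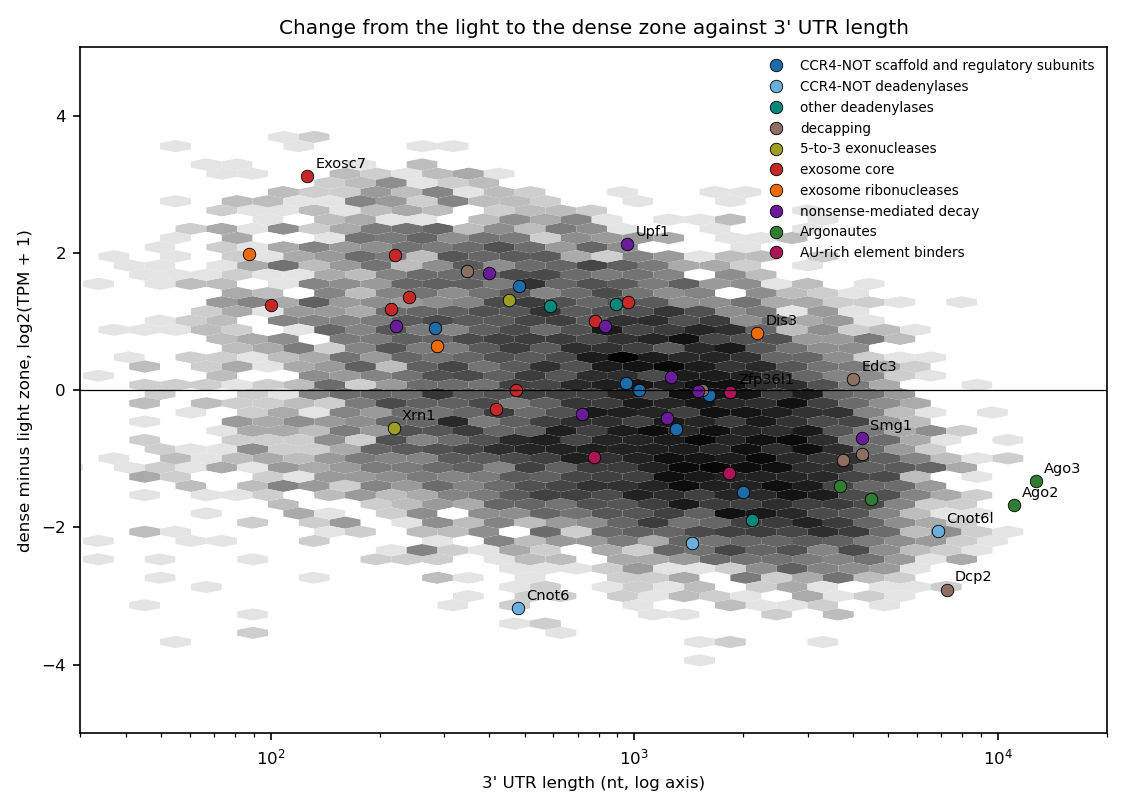
Dense-minus-light difference in log2(TPM + 1) against 3′ UTR length (log axis) for 49 members, colored by role, over 10787 genes tested (gray hexagons, darker for more genes; those with no annotated 3′ UTR or outside the axes are not drawn). Members slope from Exosc7 at the upper left to Dcp2 and the Argonautes at the lower right, with Cnot6 below the short members.

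Other genes of mRNA decay were counted from a list of 71 symbols, of which 65 were in both gradients and all 65 were tested. From light to dense 19 were higher, 26 lower and 20 not called, where 22.3% of all genes were higher and 39.6% lower, with a median of -0.40 against -0.43 for all genes. The 2 largest rises were Eif4a3 (3.11, SE 0.26, limma adjusted p = 0.000451), the helicase of the exon junction complex that marks transcripts for nonsense-mediated decay, and Wdr61 (2.79, SE 0.14, adjusted p = 0.000301), a subunit of the Ski complex that feeds RNA to the cytoplasmic exosome. The 2 largest falls were Pabpc1 (-3.36, SE 0.17, adjusted p = 0.000301), the cytoplasmic poly(A)-binding protein, and Rc3h2 (-2.77, SE 0.21, adjusted p = 0.000351), an RNA-binding protein that brings CCR4-NOT to stem-loops. From light to middle 17 were higher and 11 lower, where 23.5% and 24.1% of all genes were. From middle to dense 2 were higher and 21 lower, where 4.79% and 22.5% of all genes were. With gradient as a block these counts were 29 and 14 (37.2% and 35.0% of all genes) and 10 and 34 (14.1% and 39.3%).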

How the data were processed

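RNA of 39 sucrose fractions from 2 gradients of mouse liver was sequenced from stranded libraries depleted of ribosomal RNA. Kallisto and an index of RefSeq transcripts (mm10) were used by the authors for quantification, and they deposited 1 table of TPM a gradient, restricted to genes that passed a TPM of 1 in some fraction. bcl2fastq 2.16.0.10 is named in the submitters' processing notes. The version and strand setting of Kallisto and how transcripts were summed to genes are not given in the sources used here. TPM holds no counts, so depth and counting error are unknown and the precision is known from the spread between 2 gradients alone.

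Members were found by symbol in both tables. The members and gene lists were chosen with earlier results of these data known. Values were log2(TPM + 1), which understates the change of low genes, and genes needed a mean TPM of 1 or more over 24 zone libraries. limma 3.58.1 (R 4.3.3) with a trend in eBayes compared 2 zone means a zone, with Benjamini-Hochberg adjustment over 11754 genes. On simulated data, with values drawn independently, the fit called 20% of genes given a dense-to-light log2 difference of 1 and 90% at 2. A member that was not called may therefore still differ. The zones of a gradient share a homogenate, so they are paired: deviations from the zone mean correlated across genes at r = 0.665 (light and middle), 0.540 (light and dense) and 0.798 (middle and dense). A fit with gradient as a block was an alternative, as were the pseudocount, filters, quantile normalization, TPM without the 50 most abundant genes, other zone borders and shifts, and leaving out each zone mean.

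The members were named by role, apart from 1 that is not reported here and is drawn in no figure, though it stays in the counts. Change, standard error and adjusted p were given to the 4 largest rises and falls from light to dense and light to middle, and the 2 largest from middle to dense. The further list holds Mpp6, which in mouse is the symbol of a membrane scaffold gene and not a decay factor; it was lower from light to dense and is counted among the 26. Coordinates, lengths and sequences are from GENCODE M21 (GRCm38, the assembly of mm10). Python 3.11.15 was used with SciPy 1.17.1, pandas 2.3.3, NumPy 2.4.6 and Matplotlib 3.10.9. The number of value columns without a sample was 0.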

Additional observations from a re-analysis of the deposited data

Results flagged for a closer look

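In 6 members the dense zone lay above the light zone in gradient 1 and below it in gradient 2, and the difference between the gradients was not tested, since each gradient gives 1 value. The change in gradient 2 minus that in gradient 1, on the log2 scale, was -0.87 for Cnot8, -0.44 for Exosc6, -0.42 for Dcp1b, -0.38 for Cnot2, -0.23 for Smg6 and -0.19 for Zfp36l1. None of the 6 was called from light to dense by limma, and apart from Cnot8 their changes lay between -0.21 and 0.23 in each gradient. For all genes tested the gradients had the same sign in 92.0%, and 45 of 51 members did.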

How the results depend on the processing

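From light to dense the numbers of members called stayed within 1.5 times of the main ones under every alternative. Each zone mean of either gradient was also left out in turn, the lone mean then being assumed to vary like the others. This gave median log2 differences of -0.26 to 0.23 for members and -0.49 to -0.33 for all genes. No member called in any comparison changed sign under any alternative. Light to middle: lower 4 with gradient 2 shifted by -1, 5 with a mean TPM of at least 10 (42 members tested) and 16 with gradient as a replicate block (18.0%, 20.4% and 35.0% of all genes). Leaving out a zone mean there gave medians of 0.12 to 0.40 for members and -0.07 to 0.13 for all genes. Middle to dense: higher 0 and lower 9 with gradient 2 shifted by +1 or by -1 (all genes 2.17% and 14.2% with +1, 3.62% and 18.3% with -1). Quantile normalization gave 8 higher and 8 lower (all genes 10.4% and 13.7%). Higher were 8 with the block (all genes 14.1%) and 2 without the 50 most abundant genes (all genes 6.66%). Without a zone mean the medians were -0.38 to -0.06 for members and -0.35 to -0.26 for all genes. By limma at an unadjusted p under 0.05, 3 members were higher from middle to dense with either shift. The F test called 22 to 38 members without a zone mean. The share of all genes called by the F test in those fits is not given here. Whether that range is particular to the members therefore cannot be judged. The cause of the shifts between settings was not tested. A light zone of fractions 5 to 7 was chosen after the data were seen because fraction 4 of gradient 1 gave 50.9% of its TPM to 50 genes. With it 18 members were higher and 15 lower from light to dense, where 20.8% and 41.4% of all genes were. The median center of members, 11.9 over both gradients, was 12.9 over all 22 fractions of gradient 2, which reach denser sucrose. The median R between gradients was 0.909 without the 50 most abundant genes and 0.833 and 0.836 with shifts of +1 and -1, and the median R among members was 0.227 on the log2 scale and 0.070 in gradient 1. The block added calls in each comparison and removed none. With no counts, what depth limits could not be judged.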
